A study of Mus musculus with 12 samples.

Results

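The genes described are the 31 Hox, Meis and Pbx genes of the array: 10 of the Hoxa cluster, 9 of the Hoxb cluster, 6 of the Hoxc cluster, 3 Meis and 3 Pbx genes. They were chosen by the gene name that the scanner files give to a probe, which found 37 of 39429 probes, and 18 of the 31 genes had enough signal to be tested among 17905 genes. The RNA came from mouse GMP (granulocyte-monocyte progenitors), the marrow cells that give rise to neutrophils and monocytes. Cre recombinase under the vav promoter, active throughout the blood lineages, was present in all 4 groups. Wild-type GMP (wt, n = 4 arrays) had genotype Runx1+/+ and knockout GMP (ko, n = 4) had both Runx1 alleles floxed and deleted, Runx1 being a DNA-binding regulator of blood formation. The 2 further groups started from the same floxed donors. Their marrow was collected on day 3 after 5-fluorouracil at 150 mg/kg, infected with MIG retrovirus encoding GFP together with RUNX1-ERt2 (n = 2) or ERt2 alone (n = 2), and placed in lethally irradiated recipients. ERt2 is a hormone-binding domain that makes a fused protein depend on tamoxifen, which was given at 49.5 µg/g on 3 days after 6 weeks. Marrow was taken 24 h later, and live GFP-positive GMP, hence cells that carried the vector, were sorted. The protocol gives tamoxifen to only part of the mice, whereas all 4 transplant labels name it. The labels do not say that arrays came from separate animals, so a p-value covers no more than the variation among these samples, and that may be technical.

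Hox genes encode transcription factors with a DNA-binding homeodomain and lie in clusters whose gene order, the paralogue position, is shared between clusters. Pbx and Meis proteins are homeodomain proteins of the TALE class that bind DNA jointly with Hox proteins, Pbx mainly through a short hexapeptide of the Hox partner and Meis by binding Pbx or the more posterior Hox proteins. In blood formation the genes at the Hoxa9 end of the Hoxa cluster and Meis1 are known for high levels in stem cells and early progenitors, a decline as cells mature, and joint overexpression in acute myeloid leukaemia.

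The sequence of the Hoxa6 probe shows the part of a Hox protein that the Pbx partnership uses, since the probe lies within that coding stretch. It lies at chr6:52158194-52158253 (mm9, minus strand), and capitals mark the codons of the core of the hexapeptide.
Hoxa6 probe: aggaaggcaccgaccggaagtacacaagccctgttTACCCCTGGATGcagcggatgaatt

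RefSeq promoter sequences (GRCm38.p6) were matched for 18 of the 31 members by symbol. The 250 bases before the start are shown for Meis1 (chr11:19018970-19019219, minus strand), Hoxa7 (chr6:52218574-52218823, minus strand), Hoxa9 (chr6:52227371-52227620, minus strand) and Hoxb4 (chr11:96318017-96318266, plus strand), the matched members whose level differed between ko and wt. Capitals mark the RUNX motif TGTGGT.
Meis1: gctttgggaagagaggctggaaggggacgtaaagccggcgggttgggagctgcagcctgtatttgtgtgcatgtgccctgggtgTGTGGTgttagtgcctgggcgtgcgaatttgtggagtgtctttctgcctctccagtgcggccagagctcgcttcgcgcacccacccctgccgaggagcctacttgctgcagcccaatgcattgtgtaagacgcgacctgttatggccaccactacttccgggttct
Hoxa7: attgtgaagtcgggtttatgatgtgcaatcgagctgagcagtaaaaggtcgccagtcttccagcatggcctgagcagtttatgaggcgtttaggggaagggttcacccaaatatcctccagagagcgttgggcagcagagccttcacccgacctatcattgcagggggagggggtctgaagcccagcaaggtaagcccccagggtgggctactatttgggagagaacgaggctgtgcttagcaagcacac
Hoxa9: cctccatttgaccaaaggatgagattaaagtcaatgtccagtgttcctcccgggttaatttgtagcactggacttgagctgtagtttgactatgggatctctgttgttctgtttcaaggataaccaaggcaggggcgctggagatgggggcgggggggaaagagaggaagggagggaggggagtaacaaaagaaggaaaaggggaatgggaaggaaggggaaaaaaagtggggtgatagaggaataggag
Hoxb4: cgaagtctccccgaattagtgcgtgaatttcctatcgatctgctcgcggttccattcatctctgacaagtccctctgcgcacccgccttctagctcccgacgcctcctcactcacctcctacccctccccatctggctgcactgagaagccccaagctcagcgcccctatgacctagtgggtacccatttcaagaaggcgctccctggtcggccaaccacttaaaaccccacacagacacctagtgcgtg

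Both strands of each window were searched for the RUNX motifs TGTGGT and TGCGGT, for TGATNNAT, a joint Hox-Pbx site, and for the Meis motif TGACAG. The RUNX motif TGTGGT occurred in 1 member, Meis1, where it began 166 bases before the start, and in 14.0% of all 32851 promoters. The form TGCGGT occurred in no matched member and in 5.10% of all promoters. The joint site TGATNNAT occurred in Hoxa2, Hoxb1 and Hoxb8 (7.68% of all promoters), and the Meis motif in Hoxa2 and Hoxa3 (15.9%). The wider form TGNGGT, which was searched first and includes both RUNX forms, occurred in 40.1% of all promoters and in 6 members, Hoxa5, Hoxa9, Hoxa11, Hoxb4, Meis1 and Pbx2. These matches describe the letters of the window and no binding was measured.

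Each array had 53.5% to 63.2% of its probes well above background, and the median signal was 65.4 to 98.6 in wt and ko but 43.1 to 59.7 on the dimmer transplant arrays, with no saturated spot. Slide 1 held replicates 1 and 2 of wt and ko and slide 2 their replicates 3 and 4. ERt2 and RUNX1-ERt2 had a slide each, so slide and group cannot be told apart in the transplants. The arrays of slide 2 were extracted with protocol GE1_105_Jan09 and those of the other slides with GE1_107_Sep09. Slides 1 and 2 therefore differ in protocol too. Both Runx1 probes (chromosome 16, mm9) read higher in ko (2.44 to 4.20 over the probes and arrays, log2 relative to the 75th percentile of the array) than in wt (0.86 to 2.23). In ERt2 they read 2.60 to 3.29 and in RUNX1-ERt2 1.56 to 2.33. The labels do not name the deleted exon, so these probes do not check the deletion. All 13 GMP markers on the list, among them the granule protein genes Mpo, Elane, Prtn3 and Ctsg, were well above background on every array, and their summed linear signal (in units of the 75th percentile) was 671 to 936 in wt, 448 to 587 in ko, 1016 to 1152 in ERt2 and 522 to 731 in RUNX1-ERt2.

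GMP carried signal for the Hoxa genes from Hoxa2 to Hoxa10, a few Hoxb genes and most TALE partners, and little for Hoxc. Of the 10 Hoxa genes, whose probes span 96.4 kb of chromosome 6, the 8 at positions 2 to 7, 9 and 10 were tested, and Hoxa11 and Hoxa13 were on no array well above background. Of the 9 Hoxb genes, spread over 90.8 kb of chromosome 11, Hoxb2 to Hoxb6 were tested, while Hoxb1, Hoxb7 and Hoxb8 were well above background nowhere and Hoxb9 on 1 wt array. None of the 6 Hoxc genes on chromosome 15 was tested, with Hoxc4, Hoxc5 and Hoxc8 well above background nowhere, Hoxc6 on 2 wt arrays and Hoxc9 on 1. At positions 2 to 6 both the Hoxa and the Hoxb gene were tested, at 7, 9 and 10 only the Hoxa gene, and at 1, 8, 11 and 13 none. Meis1, Meis3, Pbx2, Pbx3 and Pbx4 were well above background on all 12 arrays, and Meis2 on none. In a bulk sample, fewer cells that express a gene and less RNA per cell cannot be told apart.

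**Figure D1:**
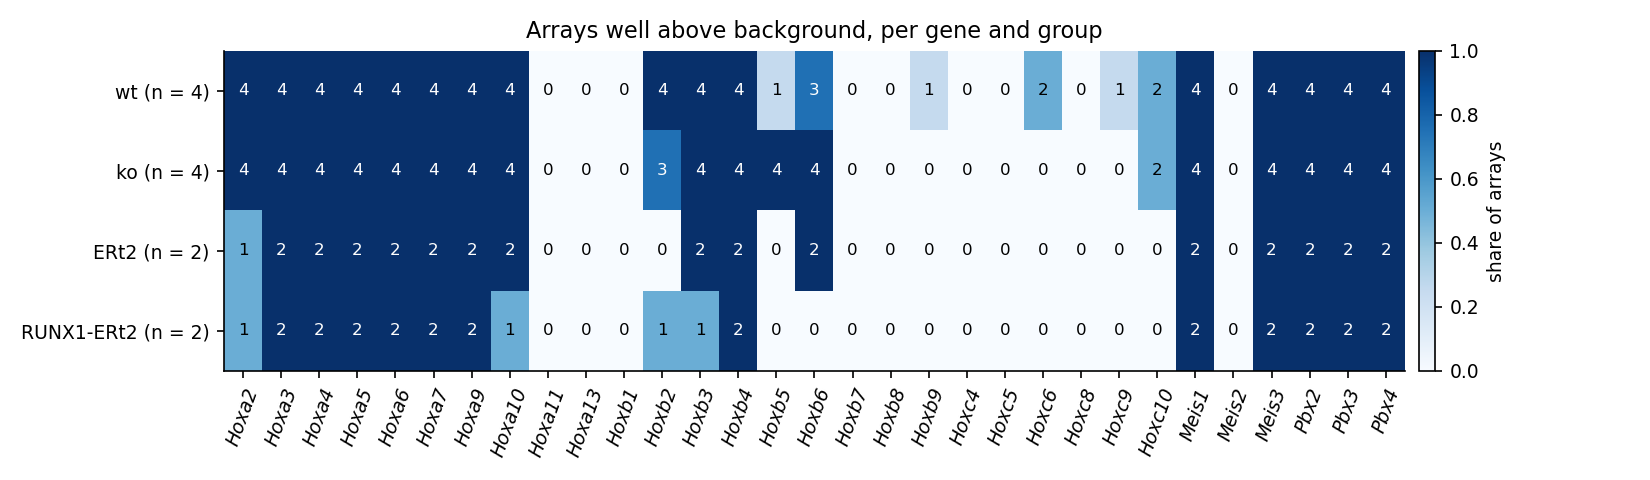
Number of arrays on which the best-detected probe of each of the 31 genes was well above background, by group (rows, n = 4, 4, 2 and 2 arrays); colour gives the share of the group's arrays. Hoxa2 to Hoxa10 and the Meis1, Meis3 and Pbx columns are filled in wt and ko, and 3 of the 6 Hoxc columns are empty.

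Hoxc10 followed the slides rather than the groups. On slide 2 its values were −5.00 and −4.04 in wt and −4.70 and −4.13 in ko, all well above background. On slide 1 they were −8.43 and −7.76 in wt and −7.49 and −7.40 in ko, none of them well above background. Wt and ko overlapped, and the gene was not well above background on any transplant array.

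The comparison of ko with wt asked how the deletion of Runx1 alters these genes in native GMP. The cofactor genes Meis1 and Pbx3 rose, and Hoxa7 and Hoxa9 fell. Hoxb3 rose on its brighter probe only, and Hoxb4 passed as higher in the main fit and in 14 of 22 alternatives. In all, 4 of the 18 tested members were higher, beside 11.5% of all genes tested, and 2 were lower, beside 13.8%. The lower count is near that of all genes. The higher count includes Hoxb3 and Hoxb4 and was not tested as an excess. In either direction the count was 6 of 18, beside 25.3%. The wt and ko arrays did not overlap for 3 higher members (10.1% of all genes) and 2 lower members (13.2%). The median difference was 0.03 over the 18 members and −0.05 over all genes. Each difference below is on the log2 scale with its SE from the limma fit and a Benjamini-Hochberg adjusted p over all genes.

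Meis1 encodes the TALE partner of Hox proteins that stem cells and megakaryocytes need. Its values (log2 relative to the 75th percentile of the array) were 2.90, 2.90, 2.83 and 3.34 in wt and 4.34, 4.10, 4.24 and 4.66 in ko. Every ko array lay above every wt array. The rise was 1.34 ± 0.20 (2.54-fold; adjusted p = 0.0019). Within the slides it was 1.32 and 1.37, and it passed in all 22 alternatives that gave a value. The Meis1 promoter printed above is the matched one that holds TGTGGT, a motif in 14.0% of all promoters. No binding was measured.

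Pbx3, a TALE partner of HOXA9 in leukaemia cells, had the largest difference of the tested members. It measured −1.41, −1.24, −1.54 and −1.47 in wt and 0.22, 0.13, 0.15 and 0.32 in ko. The 2 groups were far apart and each narrow. The rise was 1.62 ± 0.21 (3.08-fold; adjusted p = 0.00089), with 1.50 and 1.74 on the slides. A second Pbx3 probe, 482 bases away, rose by 1.39 (adjusted p = 0.0010). Pbx2 and Pbx4, its paralogues, differed by 0.08 ± 0.10 (adjusted p = 0.61) and 0.46 ± 0.22 (adjusted p = 0.15), and Pbx4 passed as higher with the replicate number as a block (0.0405). Meis3 differed by 0.03 ± 0.11 (adjusted p = 0.88).

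Markers of megakaryocytes moved with Meis1 and Pbx3. Of 13 tested megakaryocyte markers 8 were higher in ko and none lower, with a median of 1.73, and their summed signal was 17.7 to 28.7 in wt and 80.3 to 104.7 in ko. Examples are the platelet receptor genes Clec1b (4.41 ± 0.65, adjusted p = 0.0019) and Treml1 (4.30 ± 0.40, adjusted p = 0.00017). Of 10 tested stem and early progenitor markers 5 were higher and 1 lower (sum 10.7 to 17.5 in wt, 23.7 to 27.6 in ko), and of 13 GMP markers 1 was higher and 5 lower. Of 11 monocyte, macrophage and dendritic cell markers none was higher and 6 were lower (median −1.34), and of 12 basophil, mast cell and eosinophil markers 2 were higher and 5 lower. The megakaryocyte markers were all well above background in every ko array and 11 of 13 in every wt array. The part of these cell types in the differences of the members was not tested.

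**Figure D2:**
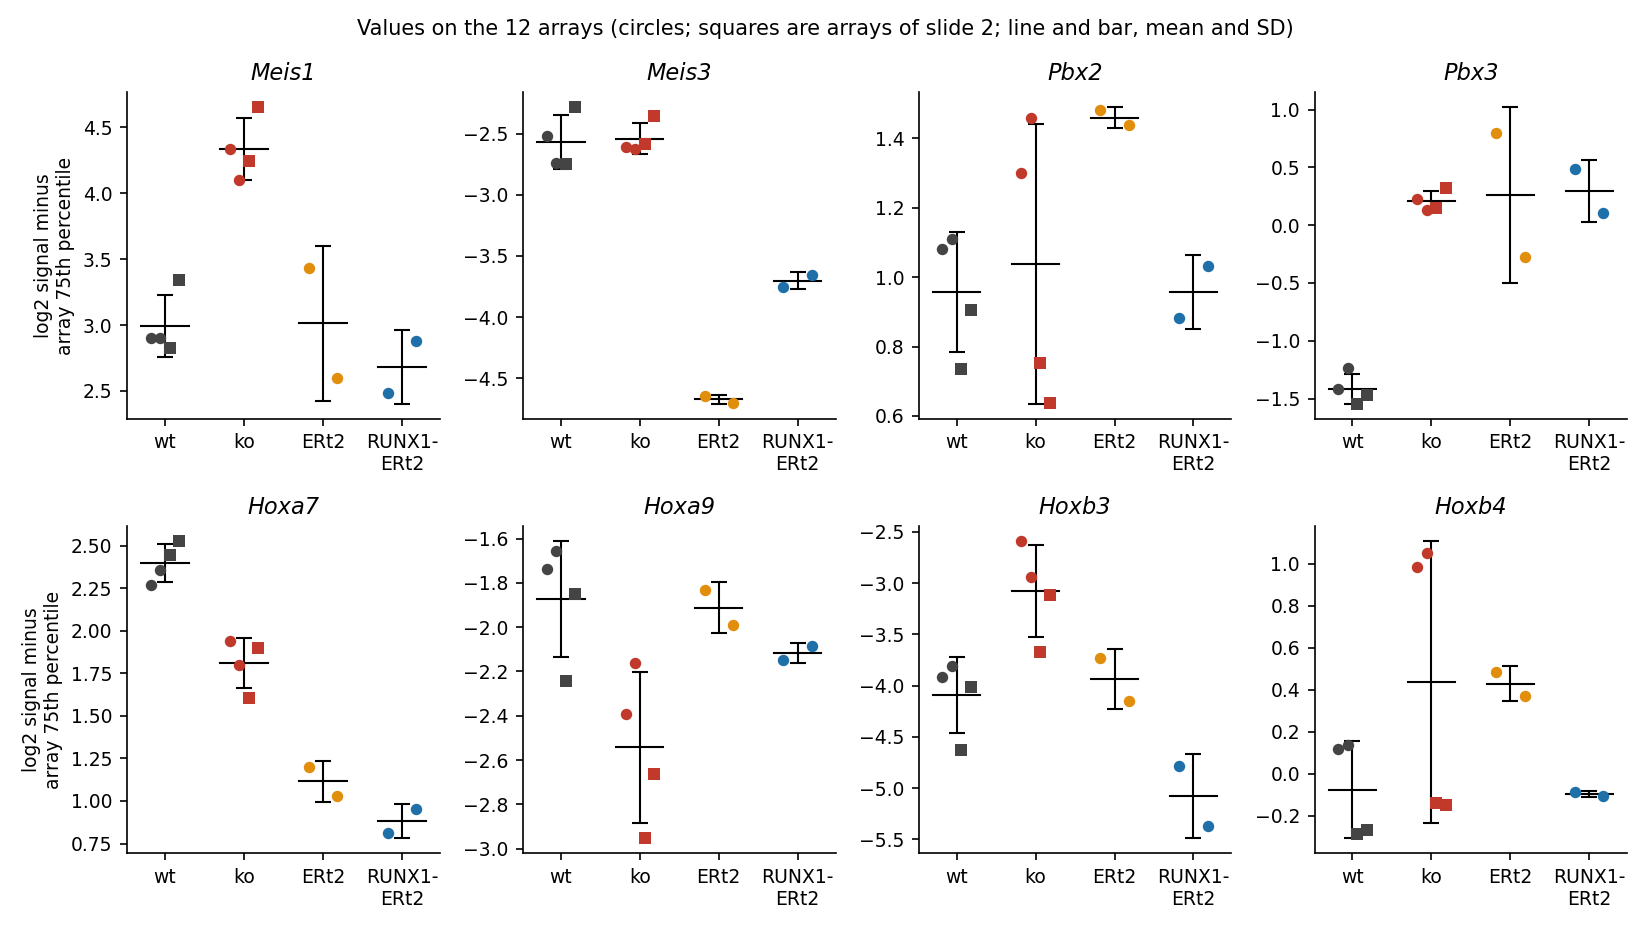
Value on each of the 12 arrays (log2 signal minus the array's 75th percentile; circles, slides 1, 3 and 4; squares, slide 2) for 8 members, with the mean and SD of each group. Meis1, Pbx3 and Hoxb3 lie higher in ko than in wt on every array, Hoxa7 lies lower, and the Hoxb4 values of slide 1 lie above those of slide 2 in both groups.

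Among the Hoxa genes, Hoxa7 and Hoxa9 fell, both of them known as targets that MLL fusion proteins keep active in leukaemia. Hoxa7 measured 2.27, 2.36, 2.45 and 2.53 in wt and 1.94, 1.80, 1.60 and 1.90 in ko. No ko array reached a wt array. The fall was −0.59 ± 0.10 (1.50-fold; adjusted p = 0.0041), with −0.44 and −0.73 on the slides.

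Hoxa9, required for normal numbers of myeloid progenitors, measured −1.74, −1.66, −2.24 and −1.85 in wt and −2.39, −2.16, −2.95 and −2.66 in ko. The groups overlapped only through wt 3 and ko 2, which lie on different slides. The fall was −0.67 ± 0.12 (1.59-fold; adjusted p = 0.0040), or −0.58 and −0.76 within the slides. On a second Hoxa9 probe, whose wt and ko arrays did not overlap, it was −0.83 (adjusted p = 0.0032). Both genes passed in all 22 alternatives.

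The other Hoxa genes did not pass, with differences from −0.69 for Hoxa6 (SE 0.37, adjusted p = 0.20) to 0.03 for Hoxa4 (SE 0.19, adjusted p = 0.93). Of the 8 tested, 7 were below 0, with a median of −0.43, and with normexp background correction Hoxa4 fell below 0 as well (−0.52). Of the 9 members well above background on no array, Hoxc8 read higher in ko (0.10). The others read lower by similar amounts, such as Hoxa11 (−0.42), Hoxb7 (−0.32) and Meis2 (−0.43). The part of such a shift in the values of the dim Hoxa genes was not tested. Hoxa5 measured −2.71, −2.72, −2.83 and −2.26 in wt and −2.95, −2.85, −3.35 and −2.91 in ko. These arrays did not overlap, but the difference of −0.39 ± 0.18 missed the threshold (adjusted p = 0.15). Hoxa3, at −0.47 ± 0.23 (adjusted p = 0.17), passed as lower with the replicate block (0.0287).

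Among the Hoxb genes, Hoxb4 and the brighter probe of Hoxb3 passed as higher. Loss of this pair of genes is known to reduce the growth of blood stem cells. Hoxb3 measured −3.91, −3.81, −4.63 and −4.02 in wt and −2.59, −2.94, −3.67 and −3.12 in ko. The groups did not overlap, and the difference was 1.01 ± 0.20 (2.01-fold; adjusted p = 0.0075), with 1.09 and 0.93 on the slides. With normexp correction it was 0.26 and did not pass (adjusted p = 0.53).

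A second Hoxb3 probe did not follow. It measured −4.35, −3.87, −5.05 and −4.36 in wt and −4.76, −4.68, −5.54 and −4.94 in ko. The groups overlapped and the difference was of the opposite sign, −0.58 ± 0.20 (adjusted p = 0.063). The direction of Hoxb3 therefore depends on the probe.

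**Figure D3:**
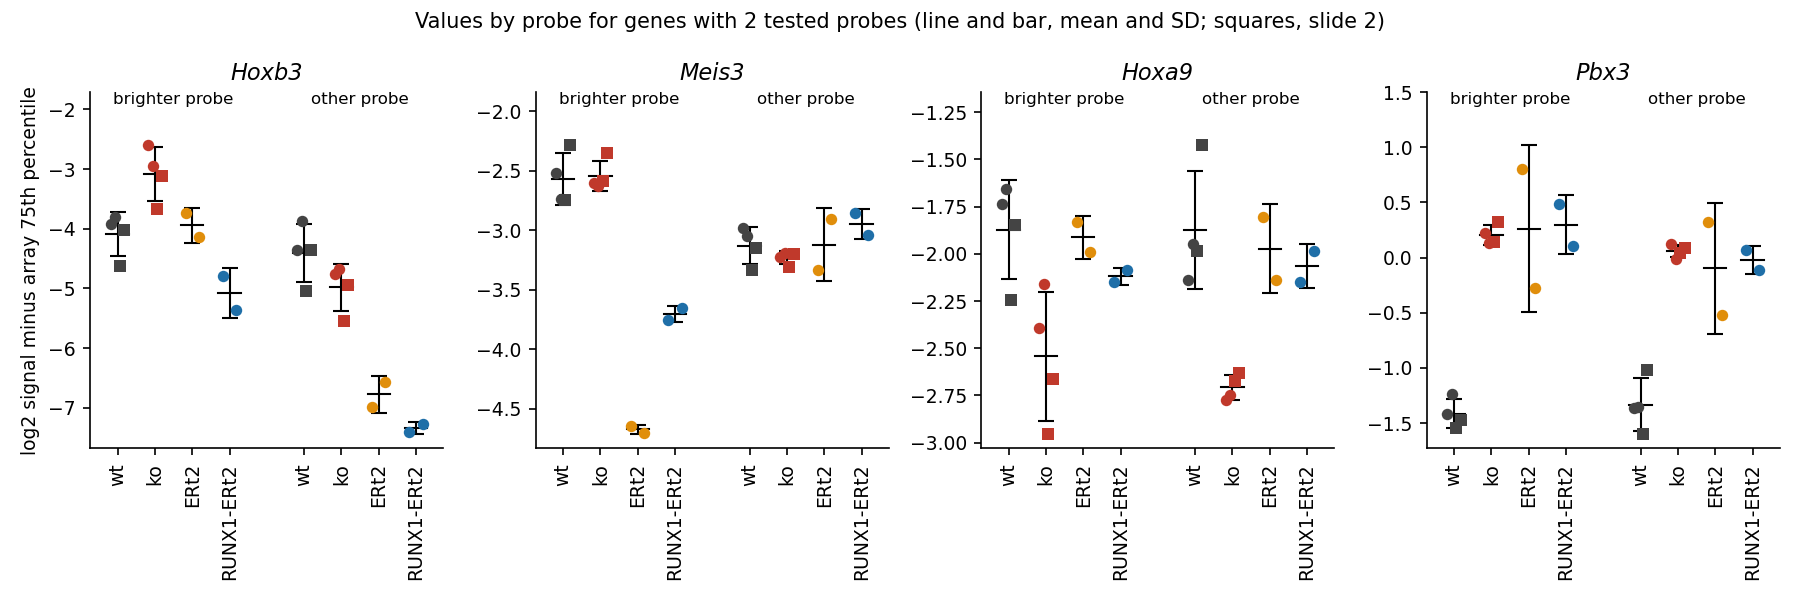
Values on each array (log2 signal minus the array's 75th percentile) for the genes with 2 tested probes, with group mean and SD; the levels of different probes are not compared. In Hoxb3 the ko mean lies above the wt mean on the brighter probe and below it on the other, in Meis3 only the brighter probe is low in the transplants, and in Hoxa9 and Pbx3 both probes move alike.

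Hoxb4, whose overexpression expands blood stem cells, measured 0.12, 0.14, −0.28 and −0.27 in wt and 0.98, 1.05, −0.14 and −0.15 in ko. On slide 1 the ko arrays stood well above wt, and on slide 2 only slightly. The difference was 0.51 ± 0.14 (1.42-fold; adjusted p = 0.028), or 0.89 within slide 1 and 0.13 within slide 2. This call ended with the replicate block (adjusted p = 0.0511), without the slide term (0.251), without the filter on dim probes (0.0608), in a fit of wt and ko alone (0.0547), and without any 1 of wt 1, wt 2, ko 1 or ko 2 (0.0817 to 0.0889).

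Hoxb5, Hoxb6 and Hoxb2 were near background. Hoxb5 was well above it on 1 of 4 wt and 4 of 4 ko arrays and differed by 0.85 ± 0.40 (adjusted p = 0.15). Hoxb6 was well above it on 3 and 4 and differed by 0.73 ± 0.32 (adjusted p = 0.13), passing as higher with the replicate block (0.041). Hoxb2 lay at −0.83 ± 0.60 (adjusted p = 0.35), and entered the test only through wt, where it is the higher. With normexp Hoxb5 and Hoxb6 turned below 0, to −0.35 and −0.39, and Hoxb5 entered the test only through ko, where it is the higher.

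The comparison of RUNX1-ERt2 with ERt2 asked what a return of RUNX1 activity does to these genes in cells without their own Runx1. Meis3 was higher with RUNX1-ERt2, and Hoxb3 and Pbx2 were lower, while Meis1 and Pbx3 did not pass. The counts were 1 higher member, beside 10.2% of all genes, and 2 lower, beside 8.87%, or 3 in either direction, beside 19.1%. Arrays of the groups did not overlap for 1 higher member (29.1% of all genes) and 9 lower members (29.8%): Hoxa3, Hoxa7, Hoxa9, Hoxa10, Hoxb3, Hoxb4, Hoxb6, Pbx2 and Pbx4. The median difference was −0.30 over the members and 0.00 over all genes. The 9 members well above background on no array also read lower with RUNX1-ERt2, without overlap, from −0.24 (Hoxc4) to −0.18 (Hoxb1). The part of such a shift in the values of the tested members was not tested. With 2 arrays a group, each on its own slide, the 2 slides cannot be told apart from the 2 vectors in any of these values.

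Hoxb3 measured −3.73 and −4.15 in ERt2 and −4.78 and −5.37 in RUNX1-ERt2. Both RUNX1-ERt2 arrays were lower, and 1 of them was well above background. The difference was −1.14 ± 0.28 (2.20-fold; adjusted p = 0.022). It ended without ERt2 1 (adjusted p = 0.13), without RUNX1-ERt2 2 (0.141), with normexp (0.632), without the slide term (0.0689) and in a fit of these groups alone (0.0882). The second Hoxb3 probe was not well above background on any transplant array.

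Hoxb4 followed the same pattern of values, at 0.49 and 0.37 in ERt2 and −0.08 and −0.11 in RUNX1-ERt2. The arrays were apart, and the difference of −0.52 ± 0.20 did not pass (adjusted p = 0.10). Hoxb6 measured −4.35 and −4.69 in ERt2, and −5.66 and −5.73 in RUNX1-ERt2, where neither array was well above background. The difference of −1.18 ± 0.45 did not pass (adjusted p = 0.11), with a lower bound of the fold of 1.89 in the main processing. With normexp it was −0.44 (adjusted p = 0.85). It passed with quantile normalization (0.0481), the replicate block (0.0312) and a fit of these groups alone (0.034).

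Pbx2 measured 1.48 and 1.44 in ERt2 and 0.88 and 1.03 in RUNX1-ERt2. The difference was −0.50 ± 0.15 (1.42-fold; adjusted p = 0.041). It passed in 7 of 22 alternatives and not with the replicate block (0.0616), and leaving out any 1 transplant array gave adjusted p from 0.0839 to 0.183. Pbx4, at −1.11 and −1.42 in ERt2 and −2.41 and −1.93 in RUNX1-ERt2, differed by −0.91 ± 0.31 (adjusted p = 0.070), and passed with the array median (0.0264), with the replicate block (0.0148) and without ko 3 (0.0468) or ko 4 (0.0468).

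Meis1 measured 3.43 and 2.60 in ERt2 and 2.48 and 2.88 in RUNX1-ERt2, and Pbx3 measured 0.80 and −0.28 against 0.49 and 0.11. In both genes the groups overlapped and the ERt2 arrays were wide apart. The differences were −0.33 ± 0.28 for Meis1 (adjusted p = 0.48) and 0.03 ± 0.29 for Pbx3 (adjusted p = 0.96).

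Hoxa7 and Hoxa9, the members that fell in ko, lay lower with RUNX1-ERt2 on both arrays of their brightest probe and did not pass. Hoxa7 measured 1.20 and 1.03 in ERt2 and 0.81 and 0.95 in RUNX1-ERt2 (−0.23 ± 0.14, adjusted p = 0.31), and Hoxa9 −1.83 and −1.99 against −2.15 and −2.09 (−0.21 ± 0.16, adjusted p = 0.45). On the second Hoxa9 probe the groups overlapped, at −1.81 and −2.14 against −2.15 and −1.98 (−0.09, adjusted p = 0.81). Hoxa10, a myeloid Hox gene, measured −3.82 and −4.53 in ERt2 and −6.09 and −4.78 in RUNX1-ERt2. The difference was −1.26 ± 0.44 (adjusted p = 0.080), and it passed without RUNX1-ERt2 2 (0.021), with quantile normalization (0.0443) and with the array median (0.0429).

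Meis3 was the member that rose. It measured −4.65 and −4.70 in ERt2 and −3.75 and −3.66 in RUNX1-ERt2, below wt and ko, whose arrays lay between −2.75 and −2.28. The difference was 0.97 ± 0.16 (1.96-fold; adjusted p = 0.0029), and it ended with normexp (0.39, adjusted p = 0.51). A second Meis3 probe that starts 290 bases further along the transcript stayed between −3.34 and −2.85 on all 12 arrays and differed by 0.17 (adjusted p = 0.52). The remaining Meis3 probe was not well above background on any array.

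**Figure D4:**
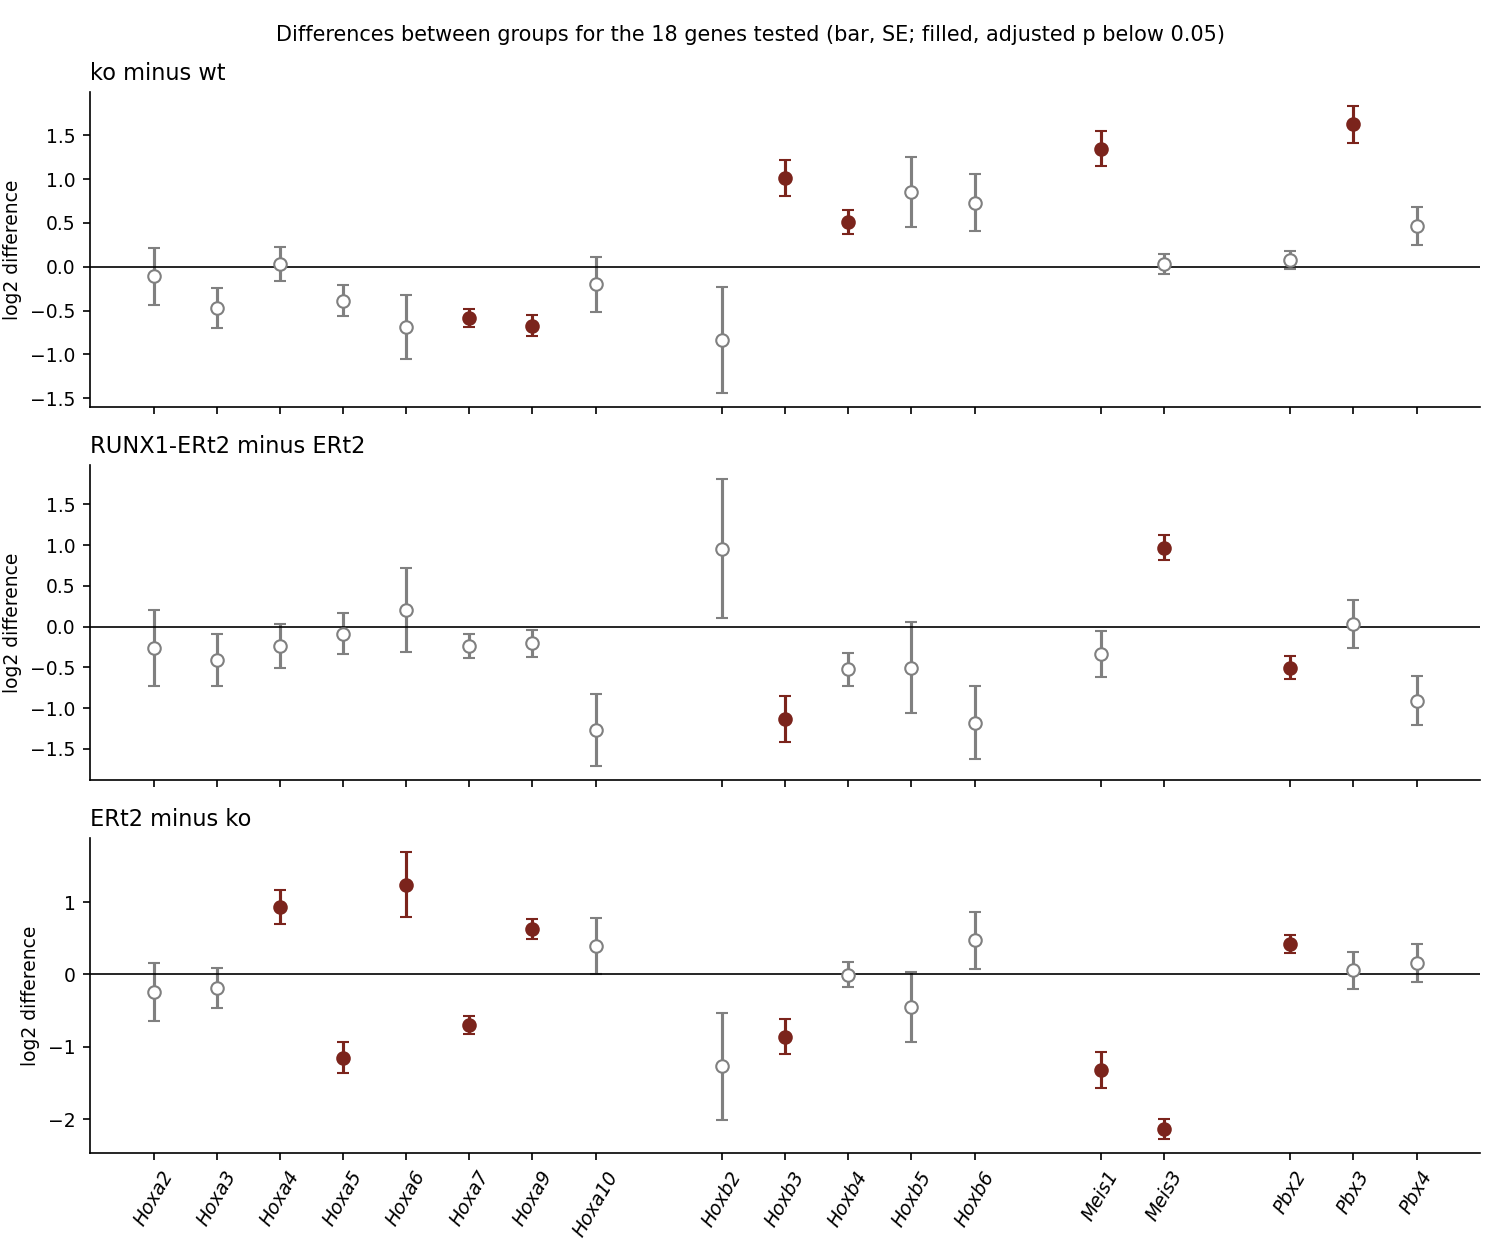
Difference between groups (log2, points) with its SE (bars) for the 18 tested members in cluster order, for ko minus wt, RUNX1-ERt2 minus ERt2 and ERt2 minus ko; filled points passed adjusted p below 0.05. In the top panel the Hoxa points lie at or below 0 and Hoxb3 to Hoxb6, Meis1 and Pbx3 above it.

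Whether the presence of RUNX1 went with the same change in both settings was tested as the difference between RUNX1-ERt2 minus ERt2 and wt minus ko. The transplant part of this difference cannot be told apart from slide. The test passed for 4 members, beside 18.2% of all genes in either direction: 2 above 0, beside 9.42%, and 2 below, beside 8.75%. Pbx3 differed by 1.66 ± 0.36 (adjusted p = 0.013), with −1.62 for wt minus ko and 0.03 in the transplants. Meis3 differed by 1.00 ± 0.19 (adjusted p = 0.0082).

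Hoxa7 differed by −0.82 ± 0.18 (adjusted p = 0.013) and Hoxa9 by −0.88 ± 0.20 (adjusted p = 0.017), with 0.59 and 0.67 for wt minus ko and −0.23 and −0.21 in the transplants. The Hoxa9 test ended without ERt2 1 or either RUNX1-ERt2 array (0.0506 to 0.0566) and without the slide term (0.0993), and that of Pbx3 without RUNX1-ERt2 1 (0.0502). With normexp, Hoxa7 (0.0801), Hoxa9 (0.102) and Meis3 (0.748) did not pass. The second Hoxb3 probe read lower in ko (−0.58, adjusted p = 0.063) and was not well above background on any transplant array. Its brighter probe passed in neither comparison with normexp (0.526 and 0.632). Hoxb4 did not pass in the transplants (adjusted p = 0.10), and its ko rise was 0.89 on slide 1 and 0.13 on slide 2. For Hoxb3 (brighter probe) and Hoxb4 the effects were −1.14 and −0.52 in the transplants and −1.01 and −0.51 for wt minus ko. The differences between settings were −0.13 ± 0.35 (adjusted p = 0.84) and −0.01 ± 0.24 (adjusted p = 0.98). For Meis1 it was 1.01 ± 0.35 (adjusted p = 0.076), passing without ERt2 1 (0.0182). Hoxa3, at −0.88 ± 0.40 (adjusted p = 0.16), passed with the replicate block (0.0273), and Hoxa10, at −1.47 ± 0.54 (adjusted p = 0.095), without RUNX1-ERt2 2 (0.0269).

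The comparison of ERt2 with ko set transplanted cells, exposed to virus and tamoxifen, against native cells of the same Runx1 genotype, and shares its arrays with the comparisons above. Of the members 4 were higher, beside 30.2% of all genes, and 5 lower, beside 26.7%, or 9 in either direction, beside 56.9%, so neither count stands out from the background. Arrays did not overlap for 3 higher (33.9% of all genes) and 5 lower members (29.1%). Slide and group cannot be told apart here either.

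Meis3 was the most altered, at −2.13 ± 0.14 (4.39-fold lower; adjusted p = 2.4e-06) on the brighter probe and 0.11 (adjusted p = 0.50) on the second. Meis1 was lower by −1.32 ± 0.25 (adjusted p = 0.0017), so its ERt2 values of 3.43 and 2.60 lay below all ko arrays and near the wt range of 2.83 to 3.34. For Pbx3 the ERt2 arrays, at 0.80 and −0.28, lay on either side of the ko range of 0.13 to 0.32. The difference was 0.06 ± 0.25 (adjusted p = 0.86), and without ERt2 2 it passed as higher, at 0.59 (adjusted p = 0.0276).

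Within the Hoxa cluster, the calls of neighbours had opposite signs. Hoxa5 measured −4.10 and −4.22 in ERt2, below its ko range of −3.35 to −2.85 (−1.15 ± 0.22, adjusted p = 0.0018), and Hoxa7 was lower too (−0.70 ± 0.13, adjusted p = 0.0014). Hoxa6, between them, measured −4.16 and −4.00 in ERt2, above its ko range of −5.52 to −5.11 (1.24 ± 0.45, adjusted p = 0.040). Hoxa4 (0.93 ± 0.24, adjusted p = 0.0085) and Hoxa9 (0.63 ± 0.14, adjusted p = 0.0046) were higher as well. The 9 members well above background on no array all read higher in ERt2 too, from 0.22 (Hoxc5) to 0.96 (Hoxa13). The part of such a shift in the higher values of the dim Hoxa4 and Hoxa6 was not tested.

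Hoxb3 was lower by −0.86 ± 0.25 (adjusted p = 0.015) and on its second probe by at least 1.15-fold (adjusted p = 0.00027), and Pbx2 was higher by 0.42 ± 0.13 (adjusted p = 0.018). Without ERt2 2 the calls of Hoxa4 (0.106), Hoxb3 (0.133), Hoxa6 (0.163) and Pbx2 (0.0695) ended, and without ERt2 1 those of Hoxa6 (0.111) and Pbx2 (0.0877). The Hoxa6 call also ended without any 1 ko array (0.0541 to 0.0807) or wt 1 (0.0527), and that of Pbx2 with the replicate block (0.318) and without the slide term (0.144). With normexp Hoxa4 (0.276), Hoxa5 (0.233), Hoxa6 (0.19), Hoxb3 (0.478) and Pbx2 (0.117) did not pass. In a fit of ERt2 and ko alone Hoxa4 (0.0691), Hoxa9 (0.0744), Hoxb3 (0.0664) and Pbx2 (0.242) did not.

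Markers of other cells differed between these groups too. Among all genes, 30.2% were higher and 26.7% lower in ERt2 than in ko, and 10.2% and 8.87% in RUNX1-ERt2 than in ERt2. The summed signal of late neutrophil markers was 22.4 to 283 in ko, 542 to 673 in ERt2 and 123 to 142 in RUNX1-ERt2. Of these 12 markers 7 were higher and none lower in ERt2 than in ko. In RUNX1-ERt2 against ERt2 none was higher and 1 was lower. Of 13 GMP markers 10 were higher in ERt2 than in ko and 6 were lower in RUNX1-ERt2 than in ERt2. The megakaryocyte sum was 25.7 to 52.4 in ERt2 and 28.7 to 75.8 in RUNX1-ERt2, and 7 of 13 of these markers were lower in ERt2 than in ko. The erythroid sum was 85.8 to 157 in ERt2 and 136 to 172 in RUNX1-ERt2, where 3 of 11 were higher and none lower. Their part in the Hox, Meis and Pbx differences was not tested.

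Counts of the genes that set Hox expression are given for ko against wt beside 11.5% higher and 13.8% lower among all genes. Of 16 MLL complex genes and other activators 2 were higher and 1 lower, with a median of −0.01 beside −0.05 for all genes. Mllt3, a subunit of the elongation complex that MLL fusions recruit, rose by 0.83 ± 0.20 (adjusted p = 0.017; 0.32 and 1.34 on the slides), but a second probe gave 0.12 (adjusted p = 0.73). The acetyltransferase gene Kat6a rose by 0.32 ± 0.09 (adjusted p = 0.034) and Wdr5, a core subunit of MLL complexes, fell by −0.30 ± 0.08 (adjusted p = 0.021).

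Of 16 Polycomb genes, whose products silence Hox clusters, 3 were higher and 2 lower, with a median of 0.06. Phc1 rose by 0.61 ± 0.14 (adjusted p = 0.013; −0.23 and adjusted p = 0.40 on its second probe) and Ezh1 by 0.49 ± 0.10 (adjusted p = 0.0070), while Ezh2, the methyltransferase of dividing cells, fell by −0.37 ± 0.09 (adjusted p = 0.014). With normexp the counts were 0 and 0 for the activators and 1 and 0 for Polycomb. Of the further TALE and Cdx genes 3 of 7 were tested, and Pknox1 was lower (−0.21 ± 0.06, adjusted p = 0.043; 0.08 on a second probe, adjusted p = 0.74). Tested among all probes, the first missed the threshold (0.0513). Cdx1, Cdx2 and Cdx4, which encode activators of Hox clusters, were not well above background on every array of any group.

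Among 18 tested genes of the list reported downstream of Hoxa9 and Meis1, 4 were higher and 4 lower in ko, beside 11.5% and 13.8% of all genes, with a median of −0.07. Bcl2, a survival gene, fell by −1.64 ± 0.20 (adjusted p = 0.00066), Pim1, a kinase gene, rose by 1.38 ± 0.30 (adjusted p = 0.010), and the cytokine receptor gene Flt3 fell by −1.08 ± 0.20 (adjusted p = 0.0051). One of 2 other Flt3 probes fell alike (−1.14) and the other did not (−0.01).

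In RUNX1-ERt2 against ERt2, 1 activator gene was higher and 1 lower, and 3 Polycomb genes were higher and 1 lower, each of 16 genes, beside 10.2% and 8.87% of all genes. Aff4 was at least 1.13-fold higher (adjusted p = 7.2e-05) and Brpf1 lower (−0.34 ± 0.09, adjusted p = 0.033). Of the Polycomb genes, Cbx8 was at least 1.41-fold higher (adjusted p = 2.1e-05) and Cbx2 higher (0.93 ± 0.17, adjusted p = 0.0048). None of the 3 TALE genes passed, Pknox1 having the smallest p (0.22 ± 0.09, adjusted p = 0.12). Of the downstream list, none was higher and 2 were lower, among them Flt3 (−1.12 ± 0.28, adjusted p = 0.022).

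In ERt2 against ko, 2 activators were higher and 5 lower, and 2 Polycomb genes higher and 6 lower, each of 16 genes, beside 30.2% and 26.7% of all genes. Aff4 and Cbx8 were not well above background in ERt2 and were at least 18.1-fold and 14.9-fold lower than in ko (adjusted p = 7.1e-09 and 3.3e-09). Mllt3 (−1.14 ± 0.25, adjusted p = 0.0038), Mllt1 (−0.76 ± 0.12, adjusted p = 0.00052) and Ring1 (−1.77 ± 0.12, adjusted p = 3.3e-06) were lower. A second Mllt3 probe gave −0.63 and did not pass (adjusted p = 0.077). Pknox1 was lower (−0.24 ± 0.08, adjusted p = 0.025; 0.43 on a second probe, adjusted p = 0.080). Of the downstream list 3 were higher and 4 lower, led by the chemokine gene Ccl3 (−5.21 ± 1.09, adjusted p = 0.0031), Trib2 (−3.93 ± 0.63, adjusted p = 0.00076) and the oxidase gene Cybb (2.90 ± 0.61, adjusted p = 0.0032). Ccl3 and Trib2 were each well above background on 1 of 2 ERt2 arrays.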

How the data were processed

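The members and gene lists were chosen with earlier results of these data known. RNA of sorted GMP was labelled with Cy3 and hybridised to 12 one-colour Agilent arrays on 4 slides. Spot intensities were deposited as scanner output, background-subtracted and detrended by Agilent Feature Extraction, per the file headers; the version there (10.7.3.1) is not the 9.1 of the submitters' processing notes. A series matrix by the authors holds ratios, each the processed signal over the array median, as found by setting its columns against the scanner values, and was used as an alternative. Each of its wt and ko columns followed another replicate of the same group (1 with 3, 2 with 4).

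Outlier spots (129 to 207 per array) and control spots were left out, and spots of one probe were averaged. The value used is log2 of the deposited processed intensity minus the 75th percentile of the array. Of 39429 probes, an accession match to a RefSeq table (GRCm38.p6) named 27198, a symbol match 3575, a synonym 565 and the file itself 8054, and the 37 member probes took the file's own gene name. A gene was tested if all arrays of 1 or more groups had its probe well above background, and was represented by its probe of highest mean. Differences were fitted with limma 3.58.1 in R 4.3.3 (lmFit and eBayes; group means and a slide term over 12 arrays; 7 residual and 2.11 prior degrees of freedom), with Benjamini-Hochberg adjustment over 17905 genes and a threshold of 0.05. The fit was tested on simulated data. A lower bound of a fold sets the mean of the bright group against the higher of the probe's own signal and the dimmest well-above-background probe of each dim array.

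All 31 members are named; from each of 4 pathway lists up to 3 genes past the threshold with the largest change are named, otherwise the gene with the smallest p. Some genes that this rule names are not reported here. Same-numbered wt and ko arrays, which share a slide, deviated together (Pearson r over genes 0.37, 0.35, 0.18 and 0.67). The main fit held no block, and the number served as a block in an alternative only. Arrays of different number on the same slide correlated at 0.45 (wt 2 with ko 1), 0.32 (wt 1 with ko 2), 0.21 (wt 3 with ko 4) and −0.06 (wt 4 with ko 3), so this check does not separate number from slide, and the value with that number as a block is given where it changes a call. In the transplanted groups the correlation was −0.19 for equal numbers and 0.19 for crossed numbers. With 2 arrays a group the deviations mirror each other, so these values always have equal size and opposite sign. They cannot be set beside those of wt and ko as a check of pairing. The block ran over all 12 arrays, so transplant arrays shared it with the wt and ko arrays of the same number. No label links those arrays. Alternatives were normexp background correction (offset 50), quantile normalization, the array median, the series matrix, the filter on dim probes, the slide term, the block, fits of only the groups compared, single probes, and leaving out each array.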

Additional observations from a re-analysis of the deposited data

Results flagged for a closer look

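Single arrays stood apart from the other 3 of their group for 5 of 49 member probes and groups scanned, and chance alone gives about 1 in 20 groups. Meis1 read 3.34 on wt 4, above 2.90 on the next array, and Pbx4 read −1.40 on wt 4, above −2.03. In ko, Hoxa3 read −2.56 on replicate 3, below −1.89, Hoxb2 read −7.09 on replicate 2, below −5.27, and Meis3 read −2.35 on replicate 4, above −2.59. The ko rise of Meis1 kept its call without wt 4.

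The difference between groups with and without RUNX1 was unlike in transplanted and native GMP for 4 members, beside 18.2% of all genes. By a test of the difference itself, these were Pbx3 (1.66, adjusted p = 0.013), Meis3 (1.00, adjusted p = 0.0082), Hoxa7 (−0.82, adjusted p = 0.013) and Hoxa9 (−0.88, adjusted p = 0.017). The value is RUNX1-ERt2 minus ERt2, less wt minus ko, on the log2 scale. Meis3 rests on 1 of its 2 detected probes. In the transplants slide and group cannot be told apart, so this difference cannot be assigned to RUNX1 alone. With normexp Hoxa7 (0.0801), Hoxa9 (0.102) and Meis3 (0.748) did not pass.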

How the results depend on the processing

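No member past the threshold changed sign under any alternative run on its brightest probe. On its second probe Hoxb3 did in ko against wt (1.01 and −0.58) and Meis3 in ERt2 against ko (−2.13 and 0.11). In the comparison of ko with wt, Meis1, Pbx3, Hoxa7 and Hoxa9 passed in all 22 alternatives, and in ERt2 against ko so did Meis1, Meis3 and Hoxa7. In ko against wt the replicate block gave 5 higher and 3 lower members. With normexp, RUNX1-ERt2 against ERt2 had 0 higher and 0 lower members, ERt2 against ko 1 higher and 3 lower, and the test of the difference between settings 1. Lower members of RUNX1-ERt2 against ERt2 numbered 4 with the array median, 1 without the filter on dim probes, 1 with probes well above background on all 12 arrays, 0 without the slide term and 1 in a fit of these groups alone. Higher members of ERt2 against ko numbered 10 without the filter, which adds members below background, and 1 in a fit of these groups alone. Leaving out each array gave 3 to 4 higher and 2 to 2 lower members in ko against wt, 1 to 1 higher and 0 to 3 lower in RUNX1-ERt2 against ERt2, 2 to 4 higher and 4 to 5 lower in ERt2 against ko, and 2 to 4 for the difference between settings. The transplant numbers crossed, an alternative chosen after seeing the data, gave 1 higher and 3 lower. With the array median, all genes split into 1880 higher and 1397 lower in ko against wt (2065 and 2471 with the percentile) and 6713 and 3745 in ERt2 against ko (5405 and 4781), where the median of all genes moved from 0.06 to 0.25. Causes were not tested. Of the list counts under these alternatives 1160 stayed within 1.5 times their value and 184 did not. The number of arrays limits the precision, above all the 2 per transplanted group, and dim members such as Hoxb2, Hoxb5 and Hoxb6 had little signal over background.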
